A study of Mus musculus with 14 samples.

Results

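The last exon of a transcript follows its last splice junction and usually carries the stop codon and the 3′ untranslated region (3′UTR). Of 17693 m6A peaks from wild-type (WT) mouse embryonic stem cells (mESCs), 7404 had their summit in a last exon, which is 41.8% (95% Wilson interval 41.1 to 42.6). A peak was counted when its summit lay in the 3′-most exon of a gene with at least 2 exons, after overlapping exons of each gene had been merged. Where exons of several genes held the summit, a last exon went before exons of other kinds. Among last exons, the gene with the greatest exonic length was taken. These peaks lay on 6058 genes, of which 4986 had 1 peak, 867 had 2 and 205 had 3 or more. For 348 peaks the summit lay on exons of more than 1 gene, and for 265 of them these exons were on both strands, so that the host gene of those is uncertain.

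The WT cells were E14Tg2a mESCs, a mouse embryonic stem cell line grown with serum and leukemia inhibitory factor on gelatin. The R255K cells were the same line with a CRISPR-Cas9 knock-in that exchanges an arginine of METTL14 for lysine, obtained by isolation of single colonies. Whether all R255K libraries came from 1 clone is not given in the sources used here. MeRIP-seq, in which fragments of about 100 nucleotides are pulled down with an antibody against m6A and sequenced beside input RNA, was done with 2 IP and 2 input libraries per genotype. The authors deposited 1 peak list per genotype, so the lists hold no value per replicate and the read depth behind them is unknown. In a separate experiment both lines were treated with actinomycin D at 5 µg/ml, which stops transcription, and mRNA was counted after 0, 4 and 8 h in 1 library per genotype and time, with 13812160 to 18813640 counts per library. At 0 h the 7 stem cell markers had 80.4 to 878 FPKM over both genotypes, against at most 4.01 for 4 fibroblast markers, 3.35 for 4 endoderm markers, 1.24 for 3 mesoderm markers and 13.4 for 2 ectoderm markers.

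The METTL3 and METTL14 heterodimer adds a methyl group to adenosines within the motif DRACH, where D stands for any base but C, R for a purine and H for any base but G. METTL3 holds the catalytic site and METTL14 helps to bind the RNA. In mammalian mRNA m6A is known to be frequent near stop codons and in long exons and scarce close to splice junctions, and YTHDF proteins that read it promote mRNA decay.

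The bases around the DRACH motif nearest to the summit are given for peaks described below. The first 5 are among the 10 last-exon peaks with the highest fold enrichment in WT cells on genes with an FPKM of at least 1, the next 3 are among the 5 strongest on such genes that had no R255K peak, and the last 4 lie on the regulators *Nanog*, *Klf4*, *Sall4* and *Zfp36l1*. Positions are in mm10, the sequence is that of the transcript's strand read from the RefSeq genome of that build, and capitals mark the motif.
Adgrb1, chr15:74589049-74589073, plus strand: gccagacacaGGACAggaggtggca
Ccdc134, chr15:82141186-82141210, plus strand: accacagaaaGGACActgctcggca
Vsig10, chr5:117353051-117353075, plus strand: gctgtgatacTGACTctacccaggt
Map3k10, chr7:27656767-27656791, minus strand: caagcaggccAGACActccagagag
Rundc1, chr11:101433730-101433754, plus strand: aaggatgagcTGACCacggttgtgc
Casz1, chr4:148952503-148952527, plus strand: gcgggcgcgcGGACCccgctggcag
Zfp3, chr11:70772235-70772259, plus strand: cgtttggccaGAACTcagaaattat
Ercc5, chr1:44180916-44180940, plus strand: acttagtgagAGACCctcctcatgg
Nanog, chr6:122713386-122713410, plus strand: acttcggggaGGACTttctgcagcc
Klf4, chr4:55527770-55527794, minus strand: tgccaaggggTGACTggaagtttgt
Sall4, chr2:168749650-168749674, minus strand: aagctttgtgTGACCtcatggctgt
Zfp36l1, chr12:80109692-80109716, minus strand: attctctctcGGACCacgagggcta

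The summits gathered a short way into the last exon. Their median distance from the start of the exon was 413 bp (95% interval 402 to 429), with quartiles at 235 and 976 bp, while the exons themselves had a median length of 2243 bp. The first 400 bp held 3593 of the summits (48.5%, 47.4 to 49.7). Of these, 110 lay in the first 100 bp (1.49%, 1.23 to 1.79). The last 400 bp of the exon held 1128 summits (15.2%, 14.4 to 16.1), and the median distance to the 3′ end was 1412 bp. Of the 7404 peaks, 1168 reached past the start of the exon and 172 past its 3′ end, since the peaks were 426 bp wide at the median.

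Last exons differ in length, so summits were also counted per kb of exon at each distance, in the 10320 genes with 2 or more exons and an FPKM of at least 1 at 0 h in WT cells. In WT cells there were 0.0846 summits per kb in the first 100 bp, 0.904 from 100 to 200 bp and 1.07 from 200 to 400 bp. Further along the exon the density fell to 0.399 from 400 to 800 bp, 0.201 from 800 to 1600 bp, 0.144 from 1600 to 3200 bp and 0.0836 from 3200 to 6400 bp. The highest density in steps of 50 bp was 1.60 per kb, in the step that begins at 200 bp. The first 400 bp as a whole held 3.73 times as many summits per kb as the rest of the exon (3.54 to 3.92). This ratio was lower, at 2.77, when genes of any expression level were included.

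Measured from the 3′ end, no such rise was seen. The density was 0.0272 per kb in the last 100 bp and 0.194 from 100 to 200 bp, and then lay between 0.307 and 0.392 per kb in each range up to 6400 bp. Internal exons of at least 400 bp had a lower maximum, with 0.355 summits per kb from 100 to 400 bp past their 5′ edge and 0.297 over the same range before their 3′ edge, against 1.01 per kb from 100 to 400 bp in last exons. Both edges of these internal exons, which are splice junctions, were as poor in summits as the 3′ end of last exons, at 0.0262 and 0.0329 per kb within 100 bp. Few summits thus lay close to an exon edge with or without a junction, and the part that fragment length and peak width have in this was not tested.

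**Figure D1:**
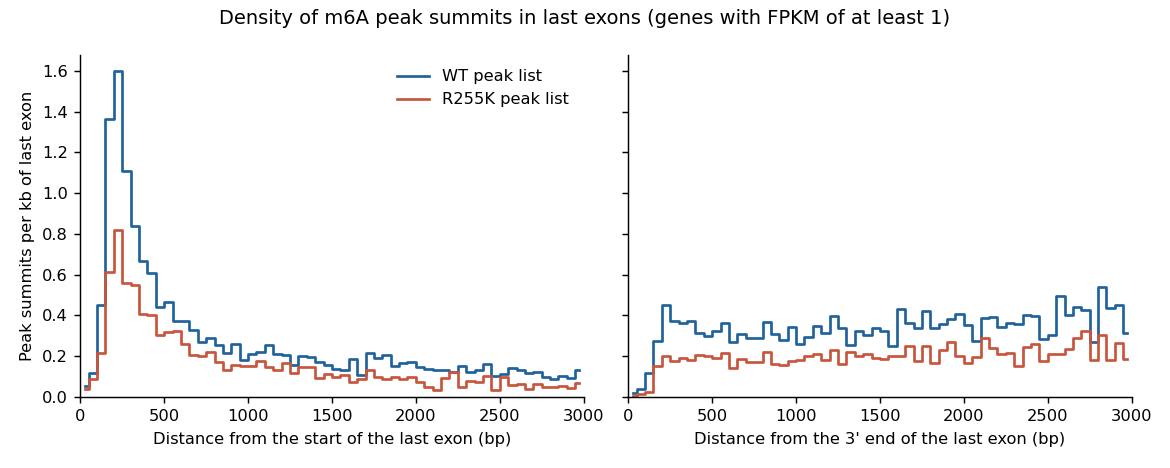
WT (blue) and R255K (red) peak summits per kb of last exon in steps of 50 bp, by distance in bp from the start of the exon (left) and from its 3′ end (right), in genes with an FPKM of at least 1. The WT line reaches 1.60 per kb and the R255K line 0.821 per kb, both in the step that begins 200 bp into the exon, while the right panel has no such maximum.

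The stop codon of a coding transcript could be placed for 6873 of the peaks. For 6675 of these it lay in the last exon and for 198 upstream of it. By summit, 2612 peaks (38.0%, 36.9 to 39.2) were in coding sequence and 4261 (62.0%, 60.8 to 63.1) in the 3′UTR. To compare the exon start with the stop codon as a reference point, expressed genes were grouped by how far into the last exon the stop codon lies.

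Where the stop codon lay in the first 400 bp of the exon, the summits were at nearly the same distance from the exon start. The median distance was 308 bp (quartiles 202 and 710) for 853 peaks with the stop codon in the first 100 bp, 268 bp for 1484 peaks with the stop codon at 100 to 200 bp and 303 bp for 1061 peaks with it at 200 to 400 bp. Relative to the stop codon, these medians moved from 248 bp past it to 126 bp and 38 bp past it. With later stop codons the summits lay deeper in the exon. The median was 485 bp for stop codons at 400 to 800 bp, 882 bp at 800 to 1600 bp and 1723 bp at 1600 bp or more, and in these 3 groups 61.9%, 72.3% and 76.2% of the summits were in coding sequence. In the last group the density was 0.776 per kb from 100 to 400 bp past the exon start and 0.932 per kb within 150 bp of the stop codon, against 0.370 per kb over the whole exon.

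In the 840 expressed genes with a stop codon at least 1000 bp into the last exon, both places could be seen apart. Going along the exon, the density was 0.0833 per kb in the first 100 bp, 1.04 per kb from 200 to 300 bp and 0.405 per kb from 600 to 700 bp, the lowest step after that maximum, and it was 0.583 per kb again from 900 to 1000 bp. Around the stop codon it was 1.08 per kb in the stretch from 200 to 100 bp before it, 0.788 in the 100 bp after it and 0.302 from 200 to 300 bp after it. In 466 expressed genes whose stop codon lay upstream of the last exon, so that the whole exon is 3′UTR, the density was 0.710 per kb from 100 to 400 bp and 0.133 per kb further along (88 and 70 summits). The zone of high density after the last junction was thus present with and without a stop codon in it.

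**Figure D2:**
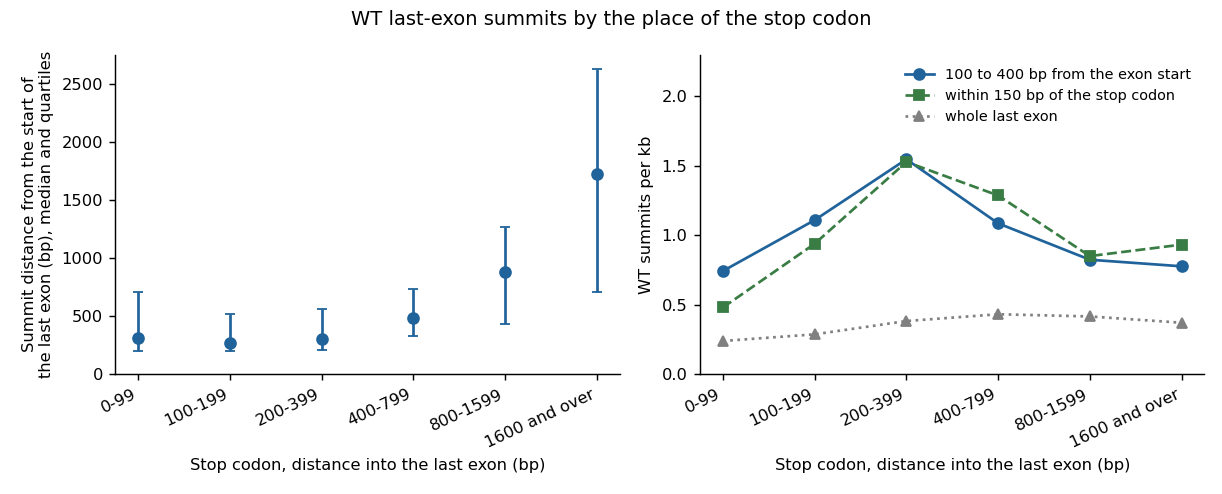
WT last-exon summits in 6 groups of genes by the distance of the stop codon into the last exon. The left panel gives the median and quartiles of the summit's distance from the exon start in bp, which stay near 300 bp until the stop codon lies beyond 400 bp. The right panel gives summits per kb from 100 to 400 bp after the exon start (blue), within 150 bp of the stop codon (green) and over the whole exon (grey), the last of which lies between 0.238 and 0.431.

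Whether a gene had a last-exon peak varied with the length of its last exon. Among all 10320 expressed genes with several exons, 4877 had one (47.3%). The share was 0.714% (0.243 to 2.08) for last exons of up to 200 bp, 7.94% from 200 to 400 bp, 33.0% from 400 to 800 bp, 49.8% from 800 to 1600 bp, 62.3% from 1600 to 3200 bp and 73.6% (71.4 to 75.7) above 3200 bp. By expression the share was highest in the middle, with 44.1% at 1 to 3 FPKM, 51.6% at 3 to 10, 51.0% at 10 to 30, 41.6% at 30 to 100 and 29.5% above 100 FPKM. The median last exon was 1543 bp long in the lowest of these groups and 638 bp in the highest, so length and expression changed together.

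The gene with the most peaks in its last exon was *Ahnak2*, which encodes a giant scaffold protein, with 10 peaks in a coding exon of 13402 bp and fold enrichments of 4.52 to 23.3. *Zfp292*, *Usf3* and *Apc*, whose product marks beta-catenin for degradation, had 6 each, and *Nrip1*, a corepressor of nuclear receptors, had 5. In *Zfp292* the strongest peaks were at the 2 ends of the coding stretch of the exon, with a fold enrichment of 11.9 at 426 bp past the exon start and 10.9 at 169 bp before the stop codon, and 4 weaker peaks of 2.31 to 5.03 lay between them. In *Usf3* the strongest of 6 peaks (14.8) lay 30 bp before the stop codon, and in *Apc* it (12.9) lay 224 bp before it. In *Ahnak2* 6 of the 10 peaks were lost, and its level at 0 h was 0.814 FPKM in WT and 0.0767 in R255K cells. A pair of its sites has the same 25 bases, so reads that lie within this repeat cannot be placed uniquely. Over all genes with several peaks, neighbouring summits in a last exon were 1013 bp apart at the median (quartiles 703 and 1590 bp, 1346 pairs).

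The motif GGAC, the core of the preferred substrates of the methyltransferase, was looked for in the sense direction of each host gene. It was found within 50 bp of the summit in 4505 of the 7404 peaks (60.8%, 59.7 to 62.0). It was found in 27.0% of all 177068 windows of the same 101 bp tiled over the last exons of expressed genes. In windows outside peaks at 100 to 400 bp from the exon start, where peaks were densest, it was found in 26.5% (25.8 to 27.2). Peaks in other exons had it in 62.1% (60.8 to 63.3). The wider motif DRACH was present in 97.4% of the peaks and already in 86.5% of all windows, so it separates peaks from other sequence less than GGAC does.

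A GGAC site was more often inside a peak when it lay near the start of the exon. GGAC occurred 4.98 times per kb at 100 to 200 bp, 4.08 at 200 to 400 bp, 2.98 at 800 to 1600 bp and 2.63 at 3200 to 6400 bp. Of these sites, 48.5% (47.1 to 49.9), 59.0% (57.9 to 60.1), 26.9% (26.2 to 27.7) and 9.03% (8.30 to 9.81) lay inside a WT peak. In the first 100 bp 25.9% of the sites did, and over all distances 31.7% (31.3 to 32.1). Summits were also densest from 100 to 400 bp, so any sequence there is more often inside a peak. The share of all sequence inside peaks was not taken by distance, so use of GGAC cannot be told apart from it. From 200 to 400 bp to 3200 to 6400 bp, both the motif and the share of its sites inside peaks declined, the share by more.

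By the DRACH 5-mer nearest to the summit, GGACT was the most common, with 859 of 7389 peaks (11.6%), although it made up 4.99% of all DRACH sites in the last exons of expressed genes. GGACA (761 peaks), AGACT (692) and GGACC (563) followed. The 5-mers that begin with TAAC were the least used, with 79 to 124 peaks each. The nearest DRACH lay 9 bp from the summit at the median, and in 55.2% of the peaks within 10 bp. Since DRACH is common, the nearest site need not be the methylated one.

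In R255K cells 4172 peaks had their summit in a last exon, 0.563 times the WT number (0.543 to 0.585 from the 2 counts alone), and they made up 44.2% of that list (43.2 to 45.2). Of the 7404 WT peaks in last exons, 3581 were not overlapped by any R255K peak and are called lost here (48.4%, 47.2 to 49.5), against 56.4% of all WT peaks. The lost share was 48.0% (46.3 to 49.6) in internal exons of at least 400 bp, 60.5% in shorter internal exons, 38.8% in first exons, 82.2% in introns and 85.3% outside genes. Since 1 list stands for each genotype, neither share has a replicate check, and a lost peak may be weaker without being absent.

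Against the 6013 peaks in other exons (46.5% lost), the lost share in last exons was higher by 1.83 percentage points (0.134 to 3.53). Lost and kept peaks differed in strength, with a median fold enrichment of 4.98 and 8.64 and a median −log10 q of 13.8 and 63.4, so the comparison was repeated among peaks of like strength. Within 10 equal groups by −log10 q, last exons had the higher lost share in 9 of 10, and the difference was 9.18 points on average. Within 10 groups by fold enrichment it was 4.37 points on average, with 6 of 10 groups higher. Among the stronger peaks, from the median fold enrichment up, 28.7% were lost in last exons and the difference turned to −2.49 points (−4.74 to −0.256). Against internal exons of at least 400 bp alone the difference was 0.410 points (−1.56 to 2.38), and 1.63 points on average within the groups by −log10 q. The sign of the difference therefore depended on how strength was handled.

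The lost share changed with the distance from the exon start. It was 66.4% (57.1 to 74.5) in the first 100 bp, 58.3% (55.3 to 61.2) from 100 to 200 bp, 47.6% (45.6 to 49.6) from 200 to 400 bp and 40.1% (37.7 to 42.5) from 400 to 800 bp. It then rose again to 45.1% from 800 to 1600 bp, 53.7% (50.2 to 57.1) from 1600 to 3200 bp and 58.1% (51.5 to 64.4) from 3200 to 6400 bp. The median WT fold enrichment was lowest in the first 2 of these ranges, at 4.00 and 4.77, and highest from 400 to 800 bp, at 7.26. Among peaks in the stronger 5 of 10 equal groups by −log10 q, 35.8% (32.1 to 39.7) were lost in the first 200 bp, 29.6% (27.4 to 31.8) from 200 to 400 bp and 20.6% (18.3 to 23.0) from 400 to 800 bp, and then 20.9% from 800 to 1600 bp and 29.5% (26.0 to 33.3) beyond. In the weaker 5 groups the lost share lay between 83.5% and 87.6% in all 5 ranges.

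**Figure D3:**
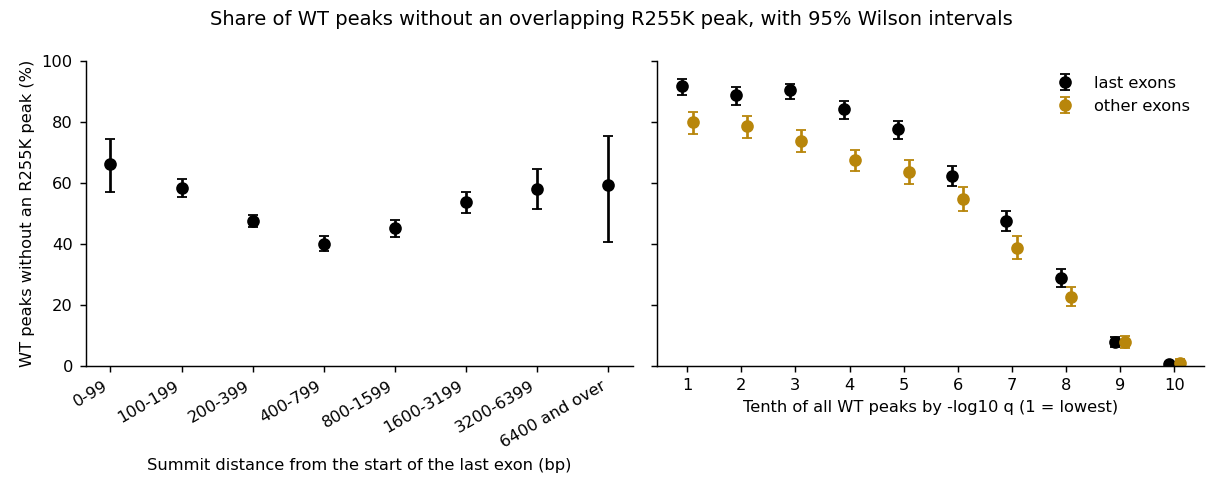
Percentage of WT peaks without an overlapping R255K peak, with 95% Wilson intervals, for last-exon peaks by distance of the summit from the exon start in bp (left) and in 10 equal groups of all WT peaks by −log10 q for last exons (black) and other exons (yellow, right). On the left the lowest value is 40.1% at 400 to 800 bp, and on the right both groups fall from 91.8% and 79.9% in the lowest group to 0.641% and 0.954% in the highest.

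The R255K summits lay somewhat deeper in the exon. Their median distance from the start was 475 bp (452 to 494) and 43.2% (41.7 to 44.7) were in the first 400 bp. The density from 100 to 200 bp was 0.412 per kb in R255K and 0.904 in WT cells, and from 400 to 800 bp 0.283 and 0.399. Peaks in coding sequence were lost less often than those in the 3′UTR, at 43.99% (42.1 to 45.9) and 50.6% (49.1 to 52.1), with a median WT fold enrichment of 6.98 and 6.21.

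Lost peaks had GGAC within 50 bp of the summit in 53.7% (52.1 to 55.4), and kept peaks in 67.5% (66.01 to 69.0). By nearest DRACH, the lost share was lowest for GGACT, with 35.4% (32.3 to 38.6), and was 45.2% (41.7 to 48.8) for GGACA and 48.0% for GGACC. Motifs without GGAC ranged around and above these. They had 46.2% for GAACT and for TAACA, 48.4% for AGACT, 54.2% for AGACA and 58.4% (52.8 to 63.9) for AAACC. In the stronger 5 of the 10 groups it was 13.3% (10.7 to 16.3) for GGACT and 29.3% (27.8 to 30.9) for DRACH motifs without GGAC. For the 3 GGAC motifs together it was 21.7% (19.6 to 23.9), a share that includes GGACT. Among strong peaks GGACT thus also had a lower lost share than motifs without GGAC. GGACA and GGACC were not taken apart by strength. The host genes of lost peaks had a median of 4.06 FPKM at 0 h and those of kept peaks 6.82 FPKM. Their median log2 ratio of expression, R255K over WT at 0 h, was −0.02 for lost and 0.04 for kept peaks, close to 0 in both.

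The 3823 kept peaks mostly became weaker at the same place. In 2898 of them the R255K list gave the lower fold enrichment (75.8%, 74.4 to 77.1), against 70.0% of all kept WT peaks, and its median was 8.64 in WT and 6.22 in R255K cells. This share was 74.0% (72.0 to 75.9) in internal exons of at least 400 bp, 51.0% (47.4 to 54.5) in first exons and 41.5% (34.4 to 49.0) in shorter internal exons. Fold enrichments from 2 lists also depend on the depth of each, which is unknown, so these shares are read against one another and against all kept peaks. The summit of the strongest overlapping R255K peak lay within 50 bp of the WT summit in 74.7% of the kept peaks (73.3 to 76.1), and the median absolute shift was 21 bp.

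**Figure D4:**
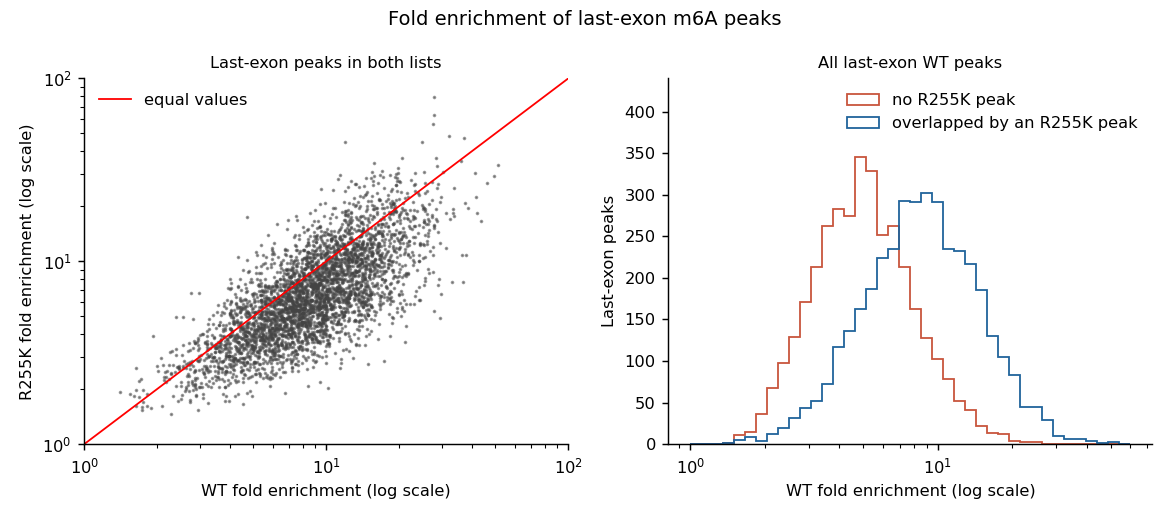
Fold enrichment of last-exon peaks, on log axes. The left panel sets the WT value of each of the 3823 kept peaks against its R255K value, and 75.8% of the points lie below the red line of equal values. The right panel counts all last-exon WT peaks by WT fold enrichment, with lost peaks (red) centred lower than kept peaks (blue), at medians of 4.98 and 8.64.

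The 10 last-exon peaks with the highest fold enrichment on genes with an FPKM of at least 1 were all kept. The first was on *Ctif*, a factor of the translation of newly exported mRNA, at 49.4 in WT and 29.3 in R255K cells, 265 bp into the exon and 50 bp past the stop codon. It was followed by *Ccdc134* (42.1 and 18.5), *Vsig10* (37.7 and 10.8) and *Tagap1* (37.1 and 47.1). *Map3k10*, a kinase upstream of JNK, had 36.4 and 10.8, and the potassium channel gene *Kcnj4* had 35.9 and 35.4. *Adgrb1*, an adhesion receptor, had 33.7 and 25.2, the dehydrogenase gene *Aldh1b1* 33.6 and 17.6, *Rundc1* 33.5 and 18.3 and *Plekho1* 33.1 and 7.73. Only *Tagap1* had the higher value in R255K cells among these 10, while 75.8% of all kept last-exon peaks were lower there. All 10 were in the highest of the 10 groups by −log10 q, where 0.641% of last-exon peaks were lost. They were picked for high WT values and are given as a description. Among the sequences shown above, *Adgrb1* and *Ccdc134* have GGACA nearest the summit, at 1 and 18 bases past it, while *Vsig10*, *Map3k10* and *Rundc1* have DRACH motifs without GGAC.

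The strongest lost peaks on genes at this level of expression were on *Casz1*, a zinc finger transcription factor, with a WT fold enrichment of 25.7, on *Zfp3* with 19.2, on *Borcs7*, a subunit of a complex that positions lysosomes, with 18.6, on *Ercc5*, an endonuclease of nucleotide excision repair, with 18.2, and on *Hspa12a* with 18.1. *Ahnak2*, which was below that level, had lost peaks of 23.3 and 18.8. Among kept peaks that reached a −log10 q of 20 in both lists, the greatest falls were on *Plekho1* (33.1 to 7.73), *Fam19a5* (20.6 to 5.49), the Wnt ligand gene *Wnt6* (16.5 to 4.52), *Hivep2* (29.3 to 8.04) and *Vsig10* (37.7 to 10.8). Among the greatest rises were those on *Emilin3* (11.97 to 45.1), *Lars2*, the mitochondrial leucyl-tRNA synthetase (27.9 to 78.9), *Bcl7b*, a subunit of BAF complexes (9.50 to 24.98) and *Auts2* (11.2 to 28.3). These were picked by their values and are given as a description. Some host genes differed in level between the genotypes. At 0 h *Hspa12a* had 1.68 FPKM in WT and 0.390 in R255K cells, *Fam19a5* 0.780 and 6.23, and *Emilin3* 0.598 and 4.43, and the part of this in the calls was not tested.

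Of the pluripotency factors and receptors, 16 of 22 expressed genes had a last-exon peak, which is 72.7% against 47.3% of all genes. They had 19 such peaks, of which 4 were lost (21.1%, against 48.4% of all last-exon peaks). The 15 kept peaks all lay in the groups with a −log10 q of 39.5 or more. In those groups 28.6%, 7.70% and 0.641% of last-exon peaks were lost. The 4 lost peaks had a −log10 q of at most 13.4. The part of −log10 q in the lost shares of this list and the lists that follow was not tested. Of the 15 kept, 6 had the lower fold enrichment in R255K cells, against 75.8% of all kept last-exon peaks. The median WT fold enrichment of the 19 was 4.38, against 6.51 over all last-exon peaks. The same overall shares and median apply to the lists that follow. *Nanog*, a homeobox factor of naive cells, had 1 peak in coding sequence, 142 bp before the stop codon, with 3.15 in WT and 2.33 in R255K cells. *Sall4* had a kept peak in its 3′UTR (4.38 and 3.86) and a lost one in coding sequence at 153 bp past the exon start (1.67). The orphan nuclear receptor gene *Esrrb* had a kept peak 6 bp past the stop codon (4.81 and 4.63), a kept one near the 3′ end (2.89 and 1.84) and a lost one between them (1.95). *Klf4* differed little (5.91 and 5.80). Values were higher in R255K cells for *Lifr* (8.43 and 15.0) and *Il6st* (10.5 and 12.9), the 2 chains of the receptor for leukemia inhibitory factor, and for *Tbx3* (8.07 and 11.5), *Nr5a2* (10.8 and 19.6) and *Klf2* (2.91 and 3.63). At 0 h *Tbx3* had 27.0 FPKM in WT and 6.18 in R255K cells, *Lifr* 15.04 and 5.67, *Nr5a2* 18.1 and 9.74 and *Il6st* 13.1 and 7.53, while *Klf2* had 226 and 222. The part of these lower levels in the fold enrichments was not tested. *Pou5f1*, *Klf5*, *Lin28a*, *Dppa3*, *Dppa5a* and *Stat3* were expressed and had no last-exon peak.

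Of the TGFβ, BMP and Nodal genes, 19 of 25 (76%) had a last-exon peak, and 7 of their 23 peaks (30.4%) were lost, against 47.3% of genes and 48.4% of peaks overall. Of the 16 kept, 10 were lower in R255K cells, against 75.8%. The ligand gene *Nodal* kept its peak 48 bp past the stop codon (6.41 and 5.87), and *Bmp4* had 7.14 and 10.8, with 47.4 FPKM at 0 h in WT and 6.50 in R255K cells. *Lefty2*, an inhibitor of Nodal, lost its peak (2.84). Among the signal transducers *Smad3* had 15.8 and 13.6 at 1 site and 13.3 and 8.70 at another, 457 bp from the 3′ end. The inhibitory *Smad7* had 4.53 and 4.13, and *Skil*, a repressor of SMAD targets, lost a peak of 4.02. The Wnt and FGF genes had peaks in 14 of 16 (87.5%, against 47.3%) and lost 11 of 21 (52.4%, near the 48.4% overall), with *Axin2* at 14.2 and 10.8 and *Dusp6*, a phosphatase of ERK, losing its peak (2.81). Formative genes had peaks in 4 of 7 and lost 1 of 5.

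Of the m6A machinery, 11 of 20 genes (55%, against 47.3%) had 1 last-exon peak each and 7 of the 11 (63.6%, against 48.4%) were lost. Their median WT fold enrichment was 2.99, against 6.51 over all last-exon peaks, and the part of this in the lost share was not tested. *Mettl14* itself lost a peak of 2.99 in its 3′UTR, 88 bp past the stop codon. The knock-in is a point change, so the counts of *Mettl14* cannot check the genotype. *Wtap*, which anchors the methyltransferase complex, kept its peak (7.72 and 4.34), and so did the reader gene *Ythdf2* (2.63 and 2.75). Of the mRNA decay factors 13 of 24 (54.2%) had such peaks and 8 of 16 were lost, both near the overall 47.3% and 48.4%. *Zfp36l1*, which binds AU-rich elements, lost its peak at 97 bp before the stop codon (3.38), and *Tob1*, an adaptor of deadenylation, kept one (6.40 and 5.23). Chromatin regulators had peaks in 13 of 23 genes (56.5%, against 47.3%) and lost 4 of 15 (26.7%, against 48.4%), among them *Jarid2* (2.33), while the remodeller *Chd7* had 20.7 and 20.8 and the methyltransferase *Kmt2d* 7.82 and 3.45. Glycolysis genes, which are highly expressed, had peaks in 3 of 12 (25%, against 47.3%), namely *Tpi1*, *Gpi1* and *Hk2*. Among the 8 genes that the study followed, 7 were expressed and 5 had a last-exon peak, of which that on *Zfp36l1* was lost. The study chose these genes on these samples, so they are no independent sample. The kept peaks were on *Gas2l3* (18.3 and 12.6), *Trim71*, a regulator of translation and decay (3.42 and 2.85), *Klf4* and *Smad7*. By MeRIP-qPCR the paper reports lower m6A in R255K cells on each of these genes and on *Zfp36l1*.

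Transcripts with a last-exon peak were removed faster after transcription stopped. In multi-exon genes whose FPKM at 0 h averaged 1 or more over both genotypes, the median log2 change in FPKM + 1 from 0 to 8 h in WT cells was −0.93 (−0.97 to −0.86) for 3354 genes whose exonic WT peaks were all in the last exon. It was −1.54 (−1.60 to −1.48) for 1573 genes with peaks in last and other exons, −0.78 (−0.87 to −0.71) for 1383 genes with peaks in other exons only, and 0.14 (0.11 to 0.16) for 4260 genes without an exonic peak. The values are relative to the total of each library, so a median above 0 does not mean that transcripts accumulated. In R255K cells the medians of the 4 groups were −0.27, −0.56, −0.15 and 0.13. The difference between all genes with a last-exon peak and genes without a peak was −1.27 (−1.31 to −1.22) in WT and −0.48 (−0.51 to −0.45) in R255K cells. From 4 to 8 h alone, which leaves out the 0 h libraries, it was −0.36 and −0.15. With 1 library per genotype and time these differences have no replicate check.

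**Figure D5:**
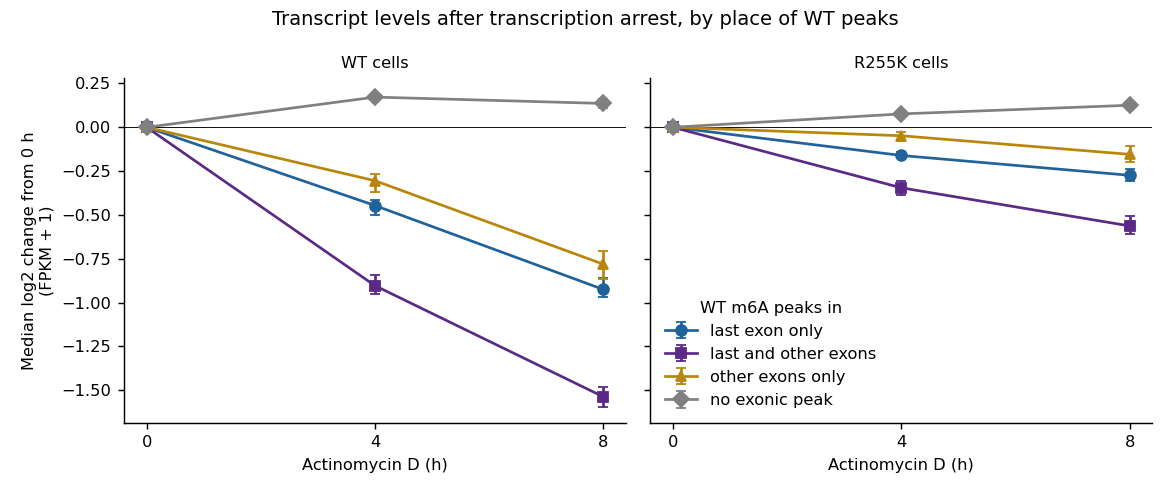
Median log2 change in FPKM + 1 since 0 h after 4 and 8 h of actinomycin D in WT (left) and R255K cells (right), for genes grouped by where their WT m6A peaks lie, with 95% intervals of the medians over genes. At 8 h the 3354 genes with peaks in the last exon only (blue) stood at −0.93 in WT and −0.27 in R255K cells, and genes without an exonic peak (grey) at 0.14 and 0.13.

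The difference was seen at all levels of expression. In 4 equal groups by FPKM at 0 h, genes with peaks in the last exon only had WT medians of −0.87, −1.42, −1.01 and −0.17 from the lowest to the highest group, against −0.06, −0.09, 0.09 and 0.57 for genes without a peak. By the distance of the first summit from the exon start, the WT median was −0.60 (−0.73 to −0.51) for summits in the first 200 bp, −0.85 (−0.93 to −0.78) from 200 to 400 bp, −1.09 (−1.19 to −0.98) from 400 to 800 bp and −1.32 (−1.47 to −1.18) from 800 to 1600 bp, and −0.94 (−1.26 to −0.74) beyond. Genes that kept all their last-exon peaks fell more in WT cells than those that lost all of them, with medians of −1.10 (−1.18 to −1.03) and −0.57 (−0.64 to −0.51), and also in R255K cells, with −0.40 and −0.09. Genes with kept peaks were the ones with stronger WT peaks, as given above.

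Half-lives, from the mean of the decay rates over 0 to 4 h and 0 to 8 h, could be computed in both genotypes where levels fell in both. This held for 2050 of 3354 genes with peaks in the last exon only and 1135 of 4260 without an exonic peak. The groups are thus selected to different degrees. Like the log2 changes, half-lives rest on levels relative to library totals and are not absolute times. For genes with peaks in the last exon only the median half-life was 3.05 h (WT) and 7.50 h (R255K) over 2050 genes, and for genes without an exonic peak 6.61 and 11.6 h (1135 genes). The half-life was over 1.5 times as long in R255K cells for 75.4% (73.9 to 76.8) of 3228 genes with a last-exon peak, against 70.4% of all genes tested and 54.5% (51.6 to 57.4) of genes without an exonic peak. Among genes with peaks in the last exon only, it was 73.2% (69.8 to 76.5) where all were lost and 70.9% (68.2 to 73.5) where all were kept, so the shares of these groups overlap within counting error.

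Single genes differed in this. The library totals at 0, 4 and 8 h were 17428469, 14983213 and 13812160 counts (WT) and 15642076, 18598491 and 18813640 (R255K). Raw counts therefore overstate a fall in WT cells and understate it in R255K cells, while the half-lives are scaled to these totals. At 0, 4 and 8 h the WT libraries held 8577, 4926 and 2763 counts of *Nanog*, and the R255K libraries 6100, 6946 and 6417. Scaled to the totals, its log2 change in FPKM + 1 from 0 to 8 h was −1.29 in WT and −0.19 in R255K cells. Its half-lives were 6.50 h (WT) and 50.3 h (R255K), the latter far beyond the 8 h observed. For *Sall4* the WT series was 6343, 885 and 503 counts and the R255K series 6122, 2597 and 3094, which gave 1.87 h (WT) and 3.79 h (R255K). *Zfp36l1*, with its lost peak, went from 1253 to 250 and 99 counts (WT) and from 580 to 355 and 280 (R255K), with half-lives of 2.12 h and 4.95 h. The kept peak of *Wtap* went with a series of 2837, 639 and 203 counts (WT) and 1887, 1799 and 1171 (R255K), with half-lives of 2.18 h and 10.1 h. *Zfp292*, of whose 6 last-exon peaks 3 were lost, started lower in R255K cells, with 1519, 213 and 87 counts (WT) and 263, 291 and 102 (R255K). *Tagap1*, whose strong peak was higher in R255K cells, fell from 256 to 4 and 5 counts (WT) and from 193 to 5 and 4 (R255K), so that at both later times too few counts were left to compare its half-lives. The same held for *Nodal*, with its kept peak, which had 891, 6 and 7 counts (WT) and 1402, 28 and 16 (R255K). The longer half-life was thus seen in *Zfp36l1* and *Wtap*, with a lost and a kept peak. Other genes with a last-exon peak had the shorter half-life in R255K cells, as *Ccdc134* with 7.85 h (WT) and 6.33 h (R255K), *Upf1*, a helicase of nonsense-mediated decay, with 44.7 h and 19.9 h, and the DNA methyltransferase gene *Dnmt3a* with 150 h and 61.3 h. For *Upf1* and *Dnmt3a* these lie far beyond the 8 h observed. Over all 3228 genes with such a peak, 2.57% had a half-life in R255K cells shorter than in WT cells by a fold of more than 1.5. This share was 5.08% over all 5096 genes tested and 13.0% over 1135 genes without an exonic peak.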

How the data were processed

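Reads of 8 MeRIP-seq and 6 actinomycin D libraries were processed by the authors, who removed rRNA reads with Bowtie2 2.2.6, aligned the rest to mm10 with HISAT2, kept uniquely mapped reads of high quality with Picard 2.16.0 and SAMtools 0.1.09, and ran MACS2 on IP against input. For each peak the authors deposited a fold enrichment (a ratio to the local background at the summit) and a −log10 q. How the replicates of a genotype were combined is not given in the sources used here. The deposited counts are raw counts per gene, and their counting tool is not given either. Columns of per-sample values without a sample numbered 0.

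Exons were merged per gene from the count tables (52459 genes, of which 4 on several loci were left out). Summits were placed with Python 3.11.15, numpy 2.4.6, pandas 2.3.3 and scipy 1.17.1, sequences were read with pysam 0.24.0 from the RefSeq genome of the same build, stop codons came from GENCODE vM21, and plots from matplotlib 3.10.9. No peak or exon lay past a chromosome end (0 of each). FPKM were computed from the counts and their totals, with a pseudocount of 1 on the log2 scale. Half-lives used a floor of 3 counts for the later times and left out genes whose level did not fall in both genotypes. As an alternative, libraries were scaled by TMM (edgeR 4.0.16, R 4.3.3). A WT peak counted as kept where it shared 1 bp or more with an R255K peak. The highest fold enrichment of the overlapping R255K peaks was then used.

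Intervals are 95% Wilson intervals for shares, Newcombe intervals for their differences and order statistics for medians. These intervals reflect counting error alone. P-values were not computed, because peaks and genes are not replicates. The scripts were tested on simulated data. The genes named are those of the lists with a last-exon peak, the 10 strongest peaks and the 5 strongest lost peaks whose −log10 q reached 5, on genes with an FPKM of at least 1, the 5 genes with most peaks, and the 5 greatest falls and rises among kept peaks that reached a −log10 q of 20 in both lists. Examples from the lists were chosen for their known roles after their values were seen. The members and lists were chosen with earlier results of these data known. A peak that this rule names among the rises is not reported here.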

Additional observations from a re-analysis of the deposited data

How the results depend on the processing

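No paired analysis was possible because each genotype has 1 peak list and 1 actinomycin D library per time. For the same reason no replicate could be left out. Of 58 recomputed values, 35 stayed within the interval of the reported one (for the number of peaks, within 1.5 times), 22 moved beyond it and 1 changed sign. With a −log10 q of at least 5 in both lists the median fold enrichment was 6.82. With the peak midpoint in place of the summit, 46.1% lay in the first 400 bp, the median distance was 433 bp and the density ratio 3.37. It was 2.77 without the FPKM filter. From the start of the annotated transcript's last exon, these were 50.9% and 390 bp. With at least 50% of the WT peak covered, 57.6% were lost and 73.6% of the kept peaks were lower in R255K. In the stronger peaks, from the median fold enrichment up, 28.7% were lost, and the difference to other exons turned to −2.49 points. It was 9.18 points within groups by −log10 q and 4.37 within groups by fold enrichment. GGAC was within 100 bp of 78.2% of the summits, and DRACH within 50 bp of 97.4%. The difference in decay was −1.48 in WT cells with a mean FPKM of at least 5, −1.42 with TMM scaling, and −1.84 in WT and −0.59 in R255K cells with a pseudocount of 0.1. It was −0.36 and −0.15 from 4 to 8 h, and −1.06 and −0.40 with peaks in the last exon only. The annotated transcript's start, the change from 4 to 8 h, peaks in the last exon only, the comparison with internal exons and the groups by fold enrichment were chosen after seeing the data. The depth of the MeRIP-seq libraries, which the lists do not give, limits what a lost peak can show.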

Other observations

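In the R255K list 120 of the 4172 last-exon peaks overlapped no WT peak (2.88%, 2.41 to 3.43), against 13.2% of all 9437 R255K peaks. Their median fold enrichment was 4.57 and the highest was 10.99, while the R255K last-exon peaks that overlapped a WT peak had a median of 6.10.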
